A study of Mus musculus with 2 samples.

Results

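The genes described here are 9 components of the transforming growth factor beta (TGF-beta) pathway, chosen by their symbols: the ligands *Tgfb1*, *Tgfb2* and *Tgfb3*, the receptors *Tgfbr1*, *Tgfbr2* and *Tgfbr3*, and the Smads *Smad2*, *Smad3* and *Smad7*. They are 9 of the 55450 genes listed in 2 scRNA-seq libraries of cerebral cortex from C57BL/6 mice, 1 control and 1 WMI (white matter injury), and each symbol matched 1 listed gene. According to the sample labels, whose treatment text is the same for both samples, the right common carotid artery had been tied on postnatal day 7 together with 1 h of hypoxia, and cortex was taken on postnatal day 14 from the ligated side of WMI mice and from the same side of control mice. The labels do not say whether the control mice were operated on. The paper gives an earlier age and a longer hypoxia than the labels, and it describes dissociated cells where the labels describe nuclei. For the source of the control cells, its results name a control side or hemisphere and its methods name control brains. The labels name separate control mice. Each condition is represented by 1 library here, whereas the paper describes several replicates per group, and the number of mice behind each library is not given in the labels.

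TGF-beta ligands are secreted in a latent form and have to be released before they can bind. An active ligand binds the type II receptor, which is encoded by *Tgfbr2* and in turn activates the type I receptor, encoded by *Tgfbr1*. *Tgfbr3* encodes betaglycan, a co-receptor that presents ligand, above all TGF-beta2, to the signalling receptors. The activated type I receptor phosphorylates the proteins of *Smad2* and *Smad3*, which enter the nucleus with Smad4 and regulate transcription, whereas *Smad7* encodes an inhibitory Smad that acts on the type I receptor. In the brain, TGF-beta signalling is known for maintaining the resting identity of microglia and for its role in the response of astrocytes and other glia to injury.

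The control library held 66470806 UMIs (unique molecular identifiers, each marking 1 captured RNA molecule) in 10288 barcodes, against 60568639 UMIs and 8354 barcodes for WMI. After filtering and removal of predicted doublets, 8755 control cells and 7571 WMI cells were kept, with medians of 4498 and 5084 UMIs, and 28 kept barcodes occurred in both libraries. Clusters were named here from marker genes, and each name carries "-like" for that reason. *Xist*, which is expressed from the inactive X chromosome of females, was found in 5 of the control cells (0.0571%) and in 4800 of the WMI cells (63.4%), and Y-linked genes in 74.7% and 59.8% of cells. Therefore, the condition and the sex of the mice cannot be told apart, and ratios were also computed in cells with a Y-linked UMI and no *Xist* UMI. Of 6542 control and 4527 WMI cells with a Y-linked UMI, 6537 and 1966 had no *Xist* UMI. Most WMI cells with a Y-linked UMI thus also held *Xist*, so this selection cannot be taken as cells of male mice. The median mitochondrial share of the kept cells was 0.0604% in the control sample and 0.448% in the WMI sample, with the higher value in the WMI sample in each of the 9 classes compared, and its part in the ratios was not tested. Microglial markers were also counted outside the myeloid classes. Levels are given in CPM, the standard depth-scaled count, here the UMIs of a gene over the summed UMIs of all genes in the same cells. The sum of 10 such markers was 4421 CPM in control microglia-like cells and 4635 in WMI microglia-like cells. In non-myeloid classes it lay between 103 and 247 in the control sample and between 208 and 575 in the WMI sample. The sum of 12 activated myeloid markers lay between 62.0 and 115 in the control sample and between 267 and 634 in the WMI sample over the same classes.

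A level below is in CPM for the cells of a class in 1 library, with an exact Poisson 95% interval, and a ratio is the WMI level over the control level on the log2 scale, with an exact conditional binomial 95% interval. These intervals cover counting error only. With 1 library per condition the spread between mice could not be estimated, so nothing was tested and no difference could be checked against replicates. Levels are compared between classes and libraries for the same gene and not between genes. Classes with fewer than 30 cells in a library were left out of the ranges. A share of cells is the share with at least 1 UMI after each cell was thinned to 1000 UMIs, with an exact Clopper-Pearson 95% interval.

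In GENCODE M21 on GRCm38, *Tgfb1* (ENSMUSG00000002603) is at chr7:25687002-25705077 on the plus strand, *Tgfb2* (ENSMUSG00000039239) at chr1:186622792-186705989 on the minus strand and *Tgfb3* (ENSMUSG00000021253) at chr12:86056745-86079041 on the minus strand. The receptor genes are *Tgfbr1* (ENSMUSG00000007613) at chr4:47353222-47414931 on the plus strand, *Tgfbr2* (ENSMUSG00000032440) at chr9:116084293-116175360 on the minus strand and *Tgfbr3* (ENSMUSG00000029287) at chr5:107106570-107289629 on the minus strand. The Smad genes are placed where they are described, and all 9 members are annotated as protein coding. *Tgfb2* overlaps 2 genes on the opposite strand and *Tgfb3* overlaps 3, among them *Ttll5*, and *Tgfbr3* overlaps 3 predicted genes on its own strand, so that part of the UMIs of these 3 members could belong to a neighbour.

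Among the members, *Tgfb1*, *Tgfbr1* and *Tgfbr2* had their highest levels in myeloid classes and *Tgfb2* in astrocyte-like cells, and the promoters of these 4 genes are shown to let their sequences be compared. Each window runs from 250 bases before to 50 bases after the annotated start, in RefSeq on GRCm38.p6, 5′ to 3′ on the strand of the gene. The windows are chr7:25686752-25687051 for *Tgfb1*, chr4:47352972-47353271 for *Tgfbr1*, chr9:116175314-116175613 for *Tgfbr2* and chr1:186705940-186706239 for *Tgfb2*. Capitals mark GAGGAA, the core of the site of the myeloid transcription factor PU.1, and CAGAC, the Smad box, on either strand (TTCCTC and GTCTG when reversed).
Tgfb1 promoter: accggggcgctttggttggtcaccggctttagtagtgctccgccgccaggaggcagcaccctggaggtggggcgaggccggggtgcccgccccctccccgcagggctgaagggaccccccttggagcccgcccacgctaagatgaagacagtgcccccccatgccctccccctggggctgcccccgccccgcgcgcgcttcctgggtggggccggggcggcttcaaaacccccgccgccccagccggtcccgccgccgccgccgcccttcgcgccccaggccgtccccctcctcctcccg
Tgfbr1 promoter: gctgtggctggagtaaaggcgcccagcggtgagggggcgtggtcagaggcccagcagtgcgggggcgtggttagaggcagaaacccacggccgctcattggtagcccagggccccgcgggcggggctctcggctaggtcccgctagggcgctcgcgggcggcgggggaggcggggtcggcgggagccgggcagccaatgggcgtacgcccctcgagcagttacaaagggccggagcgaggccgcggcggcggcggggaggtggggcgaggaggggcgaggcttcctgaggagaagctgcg
Tgfbr2 promoter: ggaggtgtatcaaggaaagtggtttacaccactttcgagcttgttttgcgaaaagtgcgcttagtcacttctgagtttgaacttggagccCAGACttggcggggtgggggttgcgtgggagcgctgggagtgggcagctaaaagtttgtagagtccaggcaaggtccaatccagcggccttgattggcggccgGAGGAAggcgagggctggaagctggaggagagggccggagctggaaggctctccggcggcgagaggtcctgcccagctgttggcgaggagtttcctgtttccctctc
Tgfb2 promoter: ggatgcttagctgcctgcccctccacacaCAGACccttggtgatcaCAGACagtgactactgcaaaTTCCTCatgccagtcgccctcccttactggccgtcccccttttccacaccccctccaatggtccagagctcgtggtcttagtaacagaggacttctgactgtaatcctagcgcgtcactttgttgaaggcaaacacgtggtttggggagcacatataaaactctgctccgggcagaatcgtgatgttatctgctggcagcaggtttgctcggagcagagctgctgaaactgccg

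The 2 motifs do not overlap each other. The *Tgfb1* and *Tgfbr1* windows were rich in G and C (77% and 74.7%, against a median of 52.7% over 32851 promoter windows) and held neither motif. The *Tgfbr1* window shown is that of the first start listed for this gene, and the window of another listed start (chr4:47385966-47386265, 52% G and C) held GAGGAA from base 156 and CAGAC from base 48. The *Tgfbr2* window (59% G and C) held GAGGAA from base 194 and CAGAC from base 91, and the *Tgfb2* window (54.3%) held TTCCTC from base 67 and CAGAC from bases 30 and 47. Of all promoter windows of 300 bases, 28.3% held GAGGAA or its reverse and 49.6% held CAGAC or its reverse, so that matches of this kind are frequent, and the windows shown do not separate the genes highest in myeloid classes from *Tgfb2*.

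Across classes, the ligands, receptors and Smads had different patterns. The class with the highest level was the same in both libraries for some members and differed for *Tgfb3*, *Tgfbr2*, *Smad2* and *Smad3*. *Tgfb1* and *Tgfbr1* were highest in microglia-like cells of either library. *Tgfb2* was highest in astrocyte-like cells, *Tgfbr3* in fibroblast-like cells and *Smad7* in mature oligodendrocyte (OL)-like cells of either library. *Tgfbr2* was highest in microglia-like cells of the control sample and in activated myeloid-like cells of the WMI sample, where the intervals of these 2 classes overlapped. At clustering resolutions 0.4 and 1.6 it was highest in microglia-like cells of the WMI sample too. *Smad2* had levels between 31.2 and 92.8 in all named classes, and was highest in microglia-like cells of the control and neuroblast-like cells of the WMI sample. *Tgfb3* was highest in fibroblast-like cells of the control and astrocyte-like cells of the WMI sample. For *Smad3* these were microglia-like and fibroblast-like cells. The interval of the highest class overlapped that of the next class for *Tgfb3*, *Smad2* and *Smad3* in each library.

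**Figure D1:**
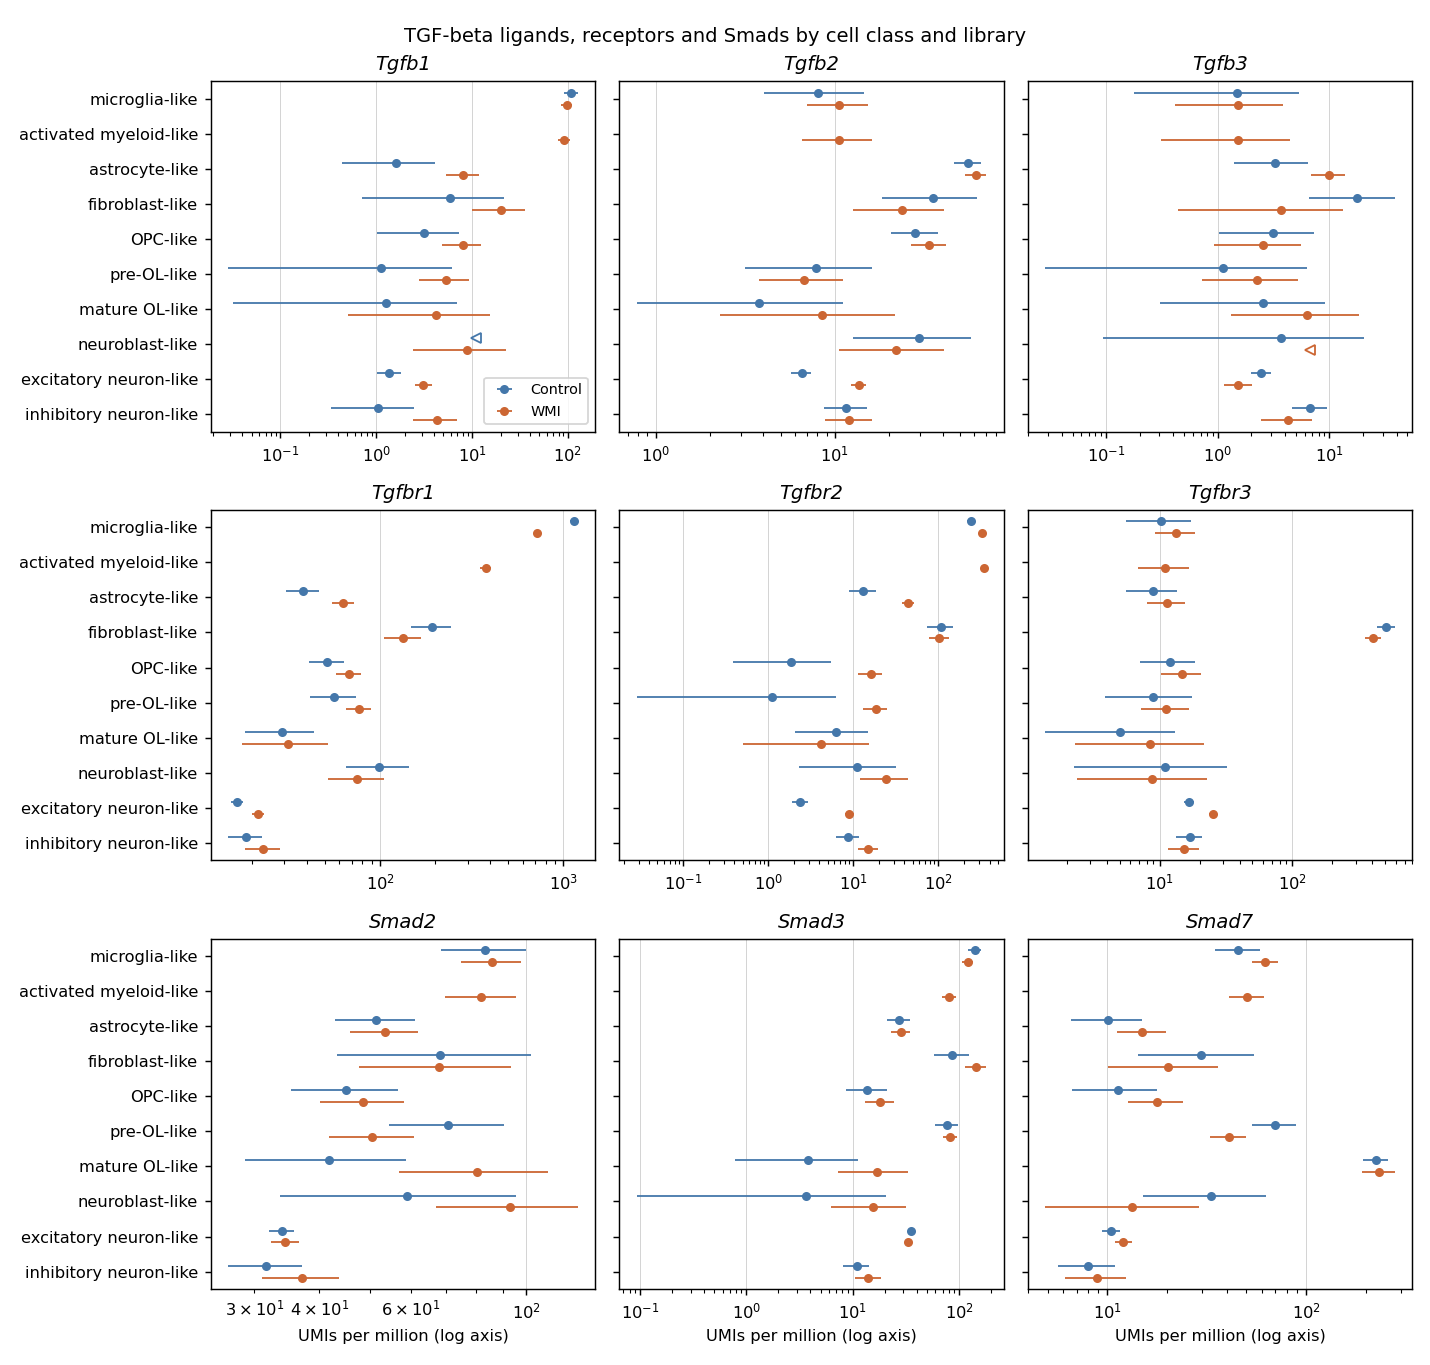
Levels of the 9 members in 10 cell classes of the control sample (blue) and the WMI sample (orange), as CPM on a log axis that differs between panels. Points are levels, bars are exact Poisson 95% intervals, open triangles mark the level that 3 UMIs would give where 0 were counted, and class and library pairs with fewer than 30 cells are left out. *Tgfbr1* was 1139 in control microglia-like cells and at most 192 in the non-myeloid classes plotted.

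*Tgfb1* encodes TGF-beta1, the ligand that microglia are known to make. Its level in microglia-like cells was 108 CPM in the control sample (147 UMIs, 95% interval 91.4 to 127) and 97.4 in the WMI sample (258 UMIs, 85.9 to 110), and activated myeloid-like cells of the WMI sample had 91.5 (182 UMIs, 78.7 to 106). The intervals of these 3 values overlapped. Microglia-like cells were 4.72% of control cells and held 58.8% of the *Tgfb1* UMIs. In the WMI sample, microglia-like cells (12.1% of cells) held 37.3% and activated myeloid-like cells (6.72% of cells) held 26.3%. In the control sample the next class was fibroblast-like cells, with 5.92 (2 UMIs), and the other named classes lay between 0 UMIs in 52 neuroblast-like cells, which at a floor of 3 counts allows a level of up to 11, and 3.13 in OPC-like cells. In the WMI sample fibroblast-like cells had 20.2 (11 UMIs, 10.1 to 36.1) and the other named classes had 1.17 to 8.84. Cells of clusters that could not be named had 27.3 (7 UMIs in 48 control cells) and 21.1 (55 UMIs in 977 WMI cells). Compared to astrocyte-like cells, the level in microglia-like cells was higher by 6.06 on the log2 scale in the control sample (4.68 to 7.96) and by 3.59 in the WMI sample (3.01 to 4.22). Per 100 UMIs of the 10 microglial markers, microglia-like cells held 2.45 *Tgfb1* UMIs in the control sample and 2.10 in the WMI sample. The other non-myeloid classes held 0 to 1.89 and 0.442 to 2.02, apart from fibroblast-like cells with 3.17 and 4.78. The part of myeloid RNA in the low *Tgfb1* levels outside myeloid and fibroblast-like cells was not tested. The share of microglia-like cells with a *Tgfb1* UMI was 9.44% (6.80 to 12.7) in the control sample and 7.65% (6.01 to 9.57) in the WMI sample, at median depths of 3124 and 2548 UMIs. Excitatory neuron-like cells, with median depths of 8079.5 and 9763.5 UMIs, had shares of 0.190% and 0.296%.

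*Tgfb2* encodes TGF-beta2 and had another pattern. Astrocyte-like cells had 55.5 CPM in the control sample (137 UMIs, 46.6 to 65.6) and 61.2 in the WMI sample (204 UMIs, 53.1 to 70.2), so that the intervals of the libraries overlapped. OPC-like cells followed with 28.1 (45 UMIs, 20.5 to 37.7) and 33.7 (80 UMIs, 26.8 to 42), together with fibroblast-like cells at 35.5 (12 UMIs) and 23.8 (13 UMIs) and neuroblast-like cells at 29.4 (8 UMIs) and 22.1 (10 UMIs). The intervals of OPC-like, fibroblast-like and neuroblast-like cells overlapped within each library. In the control sample those of fibroblast-like (18.4 to 62.0) and neuroblast-like cells (12.7 to 58.0) also overlapped that of astrocyte-like cells. Astrocyte-like cells were above OPC-like cells by 0.98 on the log2 scale in the control sample (0.48 to 1.5) and by 0.86 in the WMI sample (0.48 to 1.25). Microglia-like cells had 8.10 and 10.6. Excitatory neuron-like cells had 6.53 (239 UMIs) and 13.6 (429 UMIs), and held 38.2% and 44.5% of all *Tgfb2* UMIs. They were 48.1% and 35.7% of all cells, with median depths of 8079.5 and 9763.5 UMIs against 4498 and 5084 over all kept cells. Among the 11 excitatory neuron-like clusters with at least 30 cells in each library, *Tgfb2* was highest in cluster 13, with 19.3 in the control sample and 53.4 in the WMI sample, against medians over the clusters of 4.18 and 7.73.

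*Tgfb3* encodes TGF-beta3 and was counted rarely, with 171 UMIs in all control cells and 135 in all WMI cells. In the control sample fibroblast-like cells had 17.8 CPM (6 UMIs, 6.52 to 38.7) and inhibitory neuron-like cells had 6.73 (32 UMIs, 4.6 to 9.5). Excitatory neuron-like cells had 2.46 in the control sample (90 UMIs, 1.98 to 3.02) and 1.53 in the WMI sample (48 UMIs, 1.13 to 2.02). They held 52.6% and 35.6% of the *Tgfb3* UMIs. In the WMI sample the highest level was that of astrocyte-like cells, 9.91 (33 UMIs, 6.82 to 13.9), against 3.24 in the control sample (8 UMIs, 1.40 to 6.38). The 2 astrocyte-like clusters differed within the WMI sample. Cluster 14, which was led by *A2m* and *Gfap*, had 16.9 (24 UMIs) and cluster 9 had 4.72 (9 UMIs), a difference of 1.84 on the log2 scale (0.68 to 3.13). With 41 UMIs over both libraries, *Tgfb3* in astrocyte-like cells was under the minimum of 50 set for ratios.

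*Tgfbr1*, the type I receptor, had its highest level in microglia-like cells and was lower in those of the WMI sample. The level was 1139 CPM in the control sample (1548 UMIs, 1083 to 1198), 719 in WMI microglia-like cells (1904 UMIs, 687 to 752) and 376 in WMI activated myeloid-like cells (748 UMIs, 350 to 404). None of these 3 intervals overlapped another. Fibroblast-like cells followed with 192 (65 UMIs, 148 to 245) and 134 (73 UMIs, 105 to 168), and neuroblast-like cells with 99.3 (27 UMIs) and 75.1 (34 UMIs). Below these, pre-OL-like, OPC-like, astrocyte-like and mature OL-like cells lay between 29.1 and 56.1 in the control sample, each with an interval that overlapped that of the class above it. Excitatory neuron-like cells had 16.6 and 21.7. The share of microglia-like cells with a *Tgfbr1* UMI was 62.0% (57.1 to 66.7) in the control sample and 41.5% (38.3 to 44.8) in the WMI sample, and 90.6% and 64.0% without thinning. In excitatory neuron-like cells the share was 2.14% and 2.70%. Cells of unnamed clusters had *Tgfbr1* levels of 292 (75 UMIs) and 136 (354 UMIs). Per 100 microglial marker UMIs, microglia-like cells held 25.8 *Tgfbr1* UMIs in the control sample and 15.5 in the WMI sample. Astrocyte-like cells held 24.2 and 15.6, and excitatory neuron-like cells 15.3 and 10.4, whereas pre-OL-like cells held 40.7 and 21.1 and fibroblast-like cells 103 and 31.7. OPC-like cells held 30.9 and 17.1 and neuroblast-like cells 90 and 13.1. Mature OL-like cells held 22.8 and 13.6 and inhibitory neuron-like cells 17.9 and 9.42. The part of myeloid RNA in the *Tgfbr1* levels of non-myeloid classes was not tested.

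*Tgfbr2*, the type II receptor that binds ligand, was also highest in myeloid classes. Microglia-like cells had 239.9 CPM in the control sample (326 UMIs, 215 to 267) and 324 in the WMI sample (858 UMIs, 303 to 346), and WMI activated myeloid-like cells had 341 (678 UMIs, 316 to 367). The WMI microglia-like and activated myeloid-like intervals overlapped, and both lay above the control interval. Fibroblast-like cells had 107 (36 UMIs) and 103 (56 UMIs). Astrocyte-like cells had 13.0 in the control sample (32 UMIs, 8.86 to 18.3) and 44.1 in the WMI sample (147 UMIs, 37.3 to 51.9). Excitatory neuron-like cells had 2.38 (87 UMIs, 1.90 to 2.93) and 8.97 (282 UMIs, 7.95 to 10.1). OPC-like cells held 3 *Tgfbr2* UMIs in the control sample and 38 in the WMI sample, and pre-OL-like cells held 1 and 41. In these 4 classes the WMI level was above the control interval. In mature OL-like cells the counts were 5 and 2. In endothelial-like cells, of which there were 20 and 13, the counts were 12 and 15. These few cells were 0.228% and 0.172% of all cells but held 1.95% and 0.639% of the *Tgfbr2* UMIs.

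*Tgfbr3*, the co-receptor betaglycan, had its highest level in fibroblast-like cells. Its level was 509 CPM in the control sample (172 UMIs, 436 to 591) and 403 in the WMI sample (220 UMIs, 352 to 460). The other classes with at least 30 cells had 5.06 to 21.2 in the control sample and 8.44 to 34.0 in the WMI sample. Fibroblast-like cells made up 0.583% of the control and 1.31% of the WMI cells but held 15.2% and 15.9% of the *Tgfbr3* UMIs. Excitatory neuron-like cells held 54.0% and 57.6% of them. Compared to microglia-like cells, the level in fibroblast-like cells was higher by 5.63 on the log2 scale in the control sample (4.84 to 6.53) and by 4.93 in the WMI sample (4.41 to 5.49). The fibroblast-like class had 2 clusters. Cluster 32 had 825 in the control sample (117 UMIs) and 533 in the WMI sample (46 UMIs), and cluster 28 had 281 (55 UMIs) and 379 (174 UMIs). Cluster 28 also carried 4 of 8 markers of mural cells, the contractile cells of vessel walls, and its UMIs of the mural marker *Rgs5* were 0 in the control sample and 90 in the WMI sample. The mural marker sum of the fibroblast-like class was 210.2 and 524, and its part in the levels of this class was not tested. Among excitatory neuron-like clusters, *Tgfbr3* ranged from 4.33 to 72.7 in the control sample and from 2.30 to 53.7 in the WMI sample.

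*Smad2* (ENSMUSG00000024563, chr18:76241580-76310963, plus strand) encodes a receptor-activated Smad and was found in every class. Its level lay between 31.6 CPM in inhibitory neuron-like cells and 83.2 in microglia-like cells of the control sample, and between 31.2 in neuron-like cells of no subtype and 92.8 in neuroblast-like cells of the WMI sample. In microglia-like cells it was 83.2 (68.5 to 99.99) and 85.7 (74.9 to 97.6), and in excitatory neuron-like cells 33.8 (32.0 to 35.8) and 34.4 (32.3 to 36.5), so that the libraries overlapped in either class.

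*Smad3* (ENSMUSG00000032402, chr9:63646767-63757994, minus strand), the other receptor-activated Smad, had a wider range. Microglia-like cells had 139.8 CPM in the control sample (190 UMIs, 121 to 161) and 120.1 in the WMI sample (318 UMIs, 107 to 134). Fibroblast-like cells had 85.8 (29 UMIs, 57.5 to 123) and 145 (79 UMIs, 115 to 181), and the higher WMI level was found in cluster 28, which held 76 of the 79 UMIs. Pre-OL-like cells had 76.4 and 82.4 and OPC-like cells had 13.8 and 18.1. Excitatory neuron-like cells had 35.6 (33.7 to 37.6) and 32.9 (31.0 to 35.0), and inhibitory neuron-like cells had 10.9 (8.17 to 14.3) and 13.9 (10.4 to 18.3). The intervals of the neuron classes did not overlap. Among excitatory neuron-like clusters *Smad3* ranged from 2.09 to 90.1 in the control sample and from 4.6 to 70.2 in the WMI sample, and cluster 13 was the highest in either library, as it was for *Tgfb2*.

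*Smad7* (ENSMUSG00000025880, chr18:75367529-75395935, plus strand), the inhibitory Smad, was highest in mature OL-like cells, with 224 CPM in the control sample (177 UMIs, 192 to 260) and 232 in the WMI sample (110 UMIs, 191 to 280). In the control sample pre-OL-like cells followed with 69.6 (62 UMIs, 53.4 to 89.2) and microglia-like cells with 45.6 (62 UMIs, 35.0 to 58.5). In the WMI sample microglia-like cells had 62.3 (165 UMIs, 53.2 to 72.6), activated myeloid-like cells 50.3 (100 UMIs) and pre-OL-like cells 40.7 (91 UMIs, 32.8 to 50.01). Mature OL-like cells were 1.05% of control cells and held 20.0% of the *Smad7* UMIs of that library. The share of mature OL-like cells with a *Smad7* UMI was 19.6% (12.03 to 29.1) in the control sample and 24.5% (13.3 to 38.9) in the WMI sample, at median depths of 8137 and 8602 UMIs, against 1.02% and 1.37% of excitatory neuron-like cells.

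The comparison that the design implies is that of the WMI sample with the control sample within each class. A member was compared when it held at least 50 UMIs over both libraries of the class, and was counted as past the fold when the levels differed at least 2-fold. Over 9 classes, 48 pairs of member and class reached the minimum, and 4 of them were past the fold, all with the higher level in the WMI sample. In astrocyte-like cells this was 1 of 7 members, *Tgfbr2*, where 7.11% of all genes were past the fold in either direction. In excitatory neuron-like cells it was 3 of 9 members, *Tgfb1*, *Tgfb2* and *Tgfbr2*, where 6.13% of all genes were. No member was past the fold in microglia-like cells (0 of 6, with 5.32% of all genes), fibroblast-like cells (0 of 5, 5.59%), OPC-like cells (0 of 6, 3.18%) or pre-OL-like cells (0 of 4, 4.21%). The same held for mature OL-like cells (0 of 2, 6.13%), inhibitory neuron-like cells (0 of 7, 3.15%) and neuroblast-like cells (0 of 2, 3.91%). The median log2 ratio of the members compared was -0.05 in microglia-like cells, 0.36 in astrocyte-like cells and 0.39 in excitatory neuron-like cells, beside 0.09, 0.12 and -0.07 over all genes compared.

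**Figure D2:**
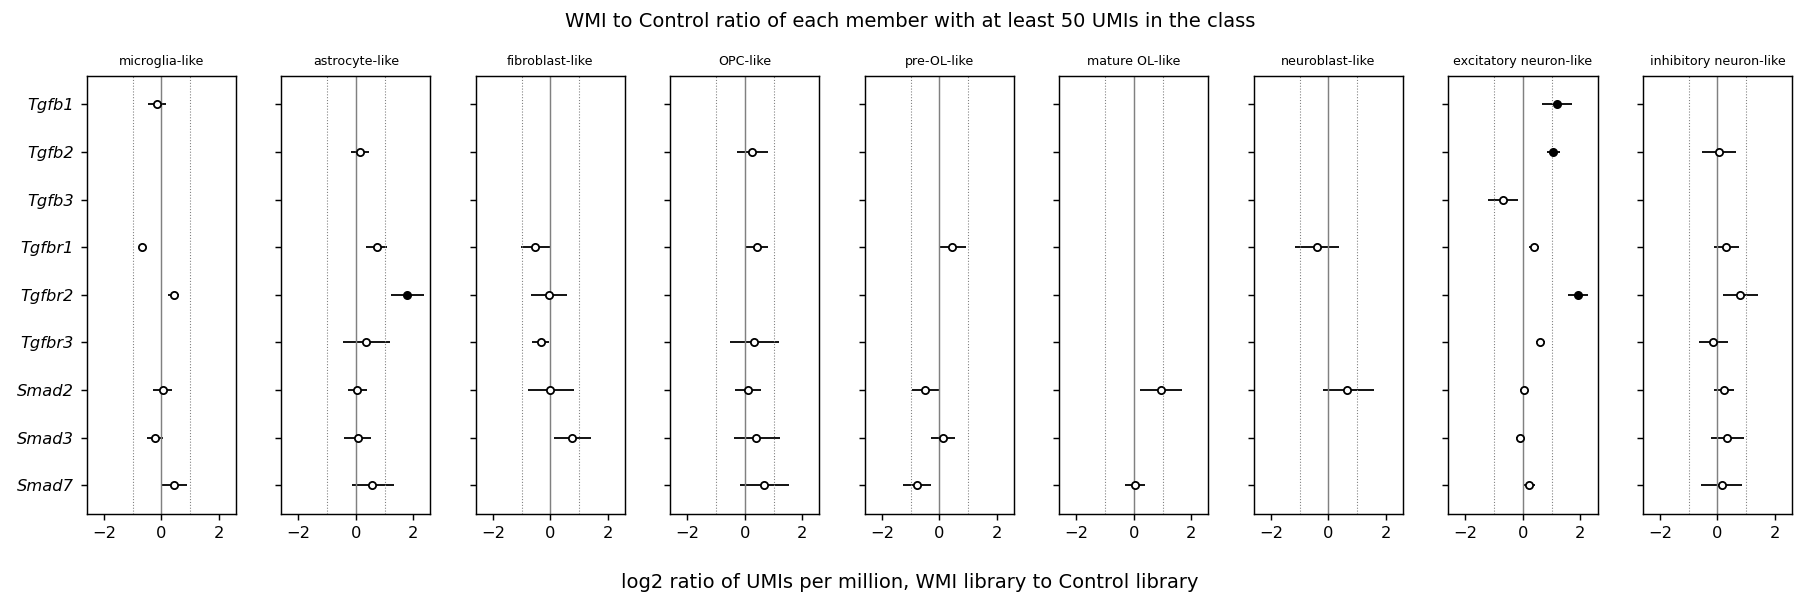
Log2 ratio of CPM in the WMI sample to the control sample for members with at least 50 UMIs in a class, with 1 panel per class. Points are ratios, bars are exact conditional binomial 95% intervals, filled points are at least 2-fold apart and dotted lines mark 2-fold. *Tgfbr2* lies at 1.77 in astrocyte-like and 1.91 in excitatory neuron-like cells, and *Tgfbr1* lies at -0.66 in microglia-like cells.

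In astrocyte-like cells the ratio of *Tgfbr2* was 1.77 on the log2 scale (1.21 to 2.37). It was found in both astrocyte-like clusters, with levels of 11.5 and 41.4 CPM in cluster 9 (ratio 1.85, 1.18 to 2.58) and of 21.3 and 47.8 in cluster 14 (ratio 1.16, 0.10 to 2.43). *Gfap*, the intermediate filament of reactive astrocytes, went from 34.4 to 317 in cluster 9 and from 239.9 to 1326 in cluster 14. *Tgfbr1* was 38.0 in the control sample (94 UMIs) and 62.7 in the WMI sample (209 UMIs), a ratio of 0.72 (0.36 to 1.09). The ratios of *Tgfb2*, *Smad2* and *Smad3* lay between 0.06 and 0.14 with intervals that included 0. In cells with a Y-linked UMI and no *Xist* UMI, the ratios of *Tgfbr2* and *Tgfbr1* were 2.16 (1.47 to 2.87) and 0.74 (0.22 to 1.26).

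The microglial marker sum moved with *Tgfbr2*. In astrocyte-like cells it was 157 CPM in the control sample and 403 in the WMI sample, with all 10 markers found in both, and the activated myeloid marker sum was 95.5 and 557. Per 100 microglial marker UMIs, astrocyte-like cells held 8.25 *Tgfbr2* UMIs in the control sample and 10.9 in the WMI sample, beside 5.43 and 6.99 in microglia-like cells and 12.2 in WMI activated myeloid-like cells. In the cells of this class without any UMI of the 10 microglial markers (212 control and 88 WMI cells), *Tgfbr2* was 11.3 (12 UMIs) and 37.3 (14 UMIs), a ratio of 1.72 (0.50 to 2.96). The interval of that ratio is wide at these counts, and activated myeloid markers were not used to select these cells. The part of myeloid RNA in the *Tgfbr2* ratio was not tested. *Tgfbr1* in the same cells had a ratio of 1.35 (0.56 to 2.13). The share of astrocyte-like cells with a *Tgfbr2* UMI was 0.847% (0.231 to 2.16) and 4.23% (2.80 to 6.09) after thinning, and 5.51% and 17.7% without thinning.

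**Figure D3:**
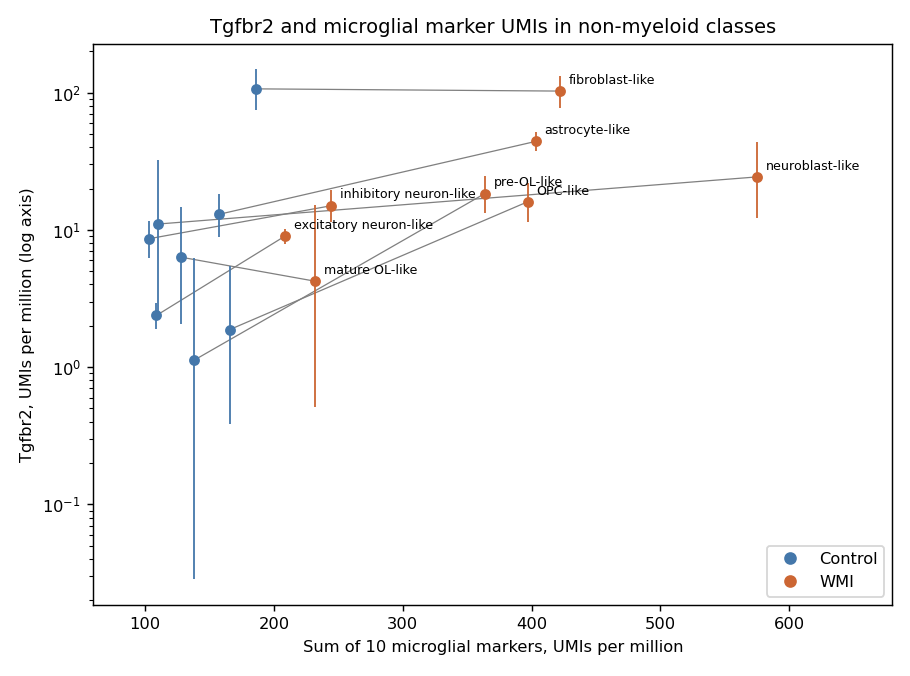
*Tgfbr2* level (CPM, log axis) against the summed level of 10 microglial markers (CPM) in 8 non-myeloid classes, with the control sample in blue, the WMI sample in orange and a line joining the libraries of a class. Bars are exact Poisson 95% intervals of the *Tgfbr2* level. The marker sum was higher in the WMI sample in all 8 classes plotted, and *Tgfbr2* went from 13.0 to 44.1 in astrocyte-like cells but from 107 to 103 in fibroblast-like cells.

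In neuron-like cells of no subtype, which are not plotted, the marker sum was lower in the WMI sample (247 and 212), while *Tgfbr2* was 5.49 (49 UMIs) and 7.95 (14 UMIs). The libraries held different cells in this class, so these values do not compare like with like. Cluster 0 gave 2358 control and 33 WMI cells, and cluster 21 gave 119 and 110. The median depths of the class were 2897 and 10390 UMIs.

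In excitatory neuron-like cells the ratios were 1.91 for *Tgfbr2* (1.56 to 2.28), 1.19 for *Tgfb1* (0.68 to 1.71) and 1.06 for *Tgfb2* (0.83 to 1.30). Each of these genes was higher in the WMI sample in 10 of the 11 clusters with at least 30 cells in each library. *Tgfb2* was 19.3 and 53.4 CPM in cluster 13 (34 and 89 UMIs) and 3.81 and 20.7 in cluster 8 (6 and 162 UMIs). Cluster 8 consisted of 141 control and 632 WMI cells, and the whole class held 239 and 429 *Tgfb2* UMIs. *Tgfb1* remained at 1.37 (50 UMIs) and 3.12 (98 UMIs). Its proportion to microglial markers was 1.26 and 1.5 per 100, below that of microglia-like cells. *Tgfbr2* held 2.18 and 4.30 UMIs per 100 marker UMIs, also below the 5.43 and 6.99 of microglia-like cells. The microglial marker sum of the class was 109 and 208, and the activated myeloid marker sum was 65.6 and 267. In cells without a microglial marker UMI (1793 control and 298 WMI cells) *Tgfbr2* was 2.34 and 10.1, a ratio of 2.11 (1.31 to 2.90), and *Tgfb2* was 7.31 and 14.9, a ratio of 1.03 (0.46 to 1.58). The part of myeloid RNA in these ratios was not tested. When the clusters that came almost entirely from 1 library were left out, the same 3 of 9 members were past the fold, where 6.18% of all genes were. Cluster 8 was kept in that comparison, and its part in the *Tgfb2* ratio was not tested. As a mean over cells of each cell's own level, *Tgfb1* and *Tgfb2* had ratios of 0.59 and 0.97, and with predicted doublets kept 0.73 and 0.54, so that neither was past the fold under these settings. With doublets kept the class also held other clusters. A cluster of 2467 control and 37 WMI cells then took the excitatory neuron-like name. A cluster of 158 control and 668 WMI cells, led by *Ano2*, was then named neuron-like of no subtype. Clusters led by *Ano2* also took that name at resolution 0.4 (143 control and 733 WMI cells) and at resolution 1.6 (53 and 441).

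Other excitatory neuron-like ratios were smaller. *Tgfb3* was lower in the WMI sample, with a ratio of -0.69 (-1.23 to -0.17) from 90 control and 48 WMI UMIs. Its level was higher in the WMI sample in 3 of the 11 clusters. *Tgfbr3* had 0.60 (0.45 to 0.76), but 0.02 when each cluster was given the same share of cells in both libraries, and cluster 8, with 46.3 and 53.7 CPM, held 141 control cells and 632 WMI cells. *Tgfbr1* had 0.39 (0.23 to 0.55), *Smad2* 0.02 (-0.10 to 0.14) and *Smad3* -0.11 (-0.23 to 0.01). In inhibitory neuron-like cells *Tgfbr2* was 8.62 (41 UMIs) and 15.0 (56 UMIs), a ratio of 0.80 (0.19 to 1.42), while *Tgfb2* was 11.6 and 12.1 (ratio 0.06, -0.54 to 0.65). In pre-OL-like and OPC-like cells *Tgfbr2* did not reach the minimum of 50 UMIs, and its ratios of 4.03 (1.47 to 9.37) and 3.09 (1.44 to 5.43) rested on 1 UMI and 3 UMIs in the control sample. The microglial marker sums beside them were 166 and 397 in OPC-like cells and 138 and 363 in pre-OL-like cells. Per 100 marker UMIs, OPC-like cells held 1.13 and 4.04 *Tgfbr2* UMIs and pre-OL-like cells 0.813 and 5.05, below the 5.43 and 6.99 of microglia-like cells. The part of myeloid RNA in these levels was not tested. In OPC-like cells without a microglial marker UMI the counts of *Tgfbr2* were 2 and 8. Inhibitory neuron-like cells held 8.35 and 6.13 *Tgfbr2* UMIs per 100 marker UMIs, and in those without a marker UMI the ratio was 0.26 (-1.76 to 1.87).

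In microglia-like cells the receptors moved in opposite directions. The ratio of *Tgfbr1* was -0.66 on the log2 scale (-0.76 to -0.57) and that of *Tgfbr2* was 0.43 (0.25 to 0.62), while *Tgfb1* (-0.15, -0.45 to 0.15), *Smad2* (0.04, -0.29 to 0.38) and *Smad3* (-0.22, -0.48 to 0.05) had intervals that included 0. *Smad7* had 0.45 (0.02 to 0.89). The class consisted of cluster 3, with 413 control and 637 WMI cells, and cluster 18, with 0 control and 278 WMI cells. Within cluster 3 alone, *Tgfbr1* was 1139 in the control sample and 847 in the WMI sample (ratio -0.43, -0.53 to -0.33), *Tgfbr2* was 239.9 and 365 (ratio 0.60, 0.41 to 0.80) and *Smad7* was 45.6 and 66.0 (ratio 0.53, 0.09 to 0.99). In that comparison too 0 of 6 members were past the fold, with 5.15% of all genes. In cells with a Y-linked UMI and no *Xist* UMI the ratio of *Tgfbr1* was -0.67 (-0.84 to -0.50) and that of *Tgfbr2* was 0.23 (-0.06 to 0.53), so that the interval of *Tgfbr2* then included 0.

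**Figure D4:**
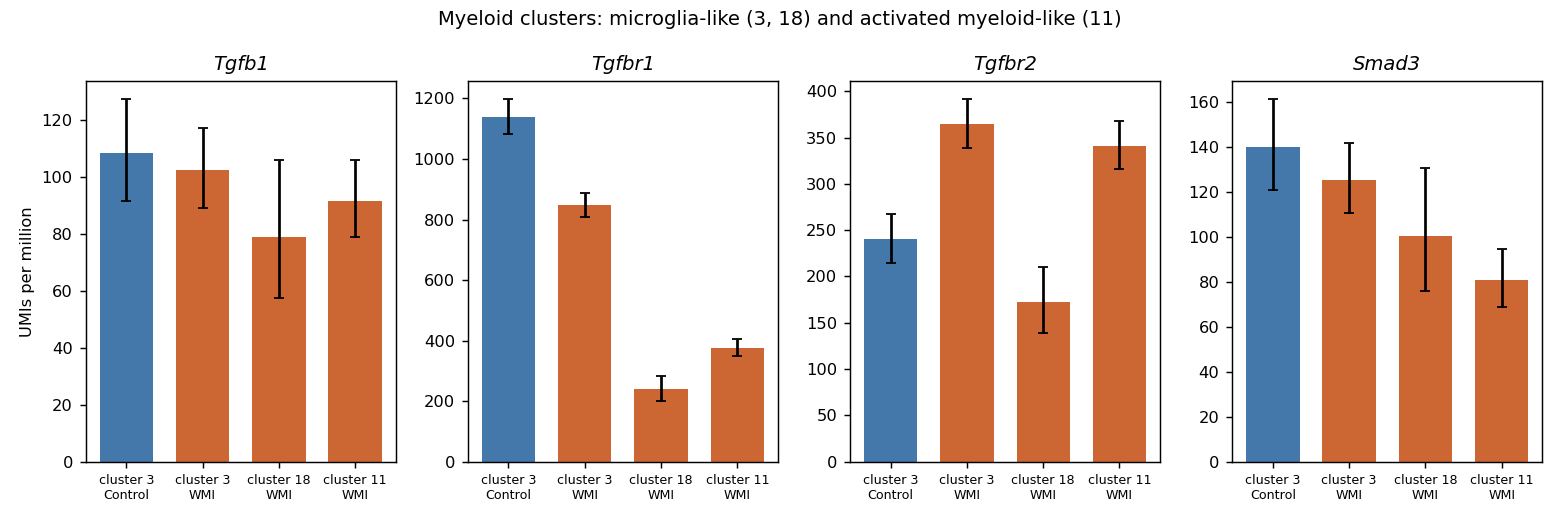
Levels of *Tgfb1*, *Tgfbr1*, *Tgfbr2* and *Smad3* (CPM, linear axes from 0) in the myeloid clusters: cluster 3 (microglia-like, both libraries), cluster 18 (microglia-like, WMI library) and cluster 11 (activated myeloid-like, WMI library). Bars are levels in the control sample (blue) or the WMI sample (orange) and whiskers are exact Poisson 95% intervals. From left to right *Tgfbr1* was 1139, 847, 240.3 and 376, and *Tgfb1* lay between 78.9 and 108.

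Within the WMI sample the myeloid clusters also differed. *Tgfbr1* was 847 CPM in cluster 3 (1770 UMIs, 808 to 887), 376 in cluster 11 (748 UMIs, 350 to 404) and 240.3 in cluster 18 (134 UMIs, 201 to 285). Compared to cluster 3, the log2 difference was -1.17 in cluster 11 (-1.30 to -1.05) and -1.82 in cluster 18 (-2.08 to -1.56). *Tgfbr2* was 365 in cluster 3, 341 in cluster 11 (difference -0.10, -0.25 to 0.05) and 172 in cluster 18 (difference -1.08, -1.40 to -0.77). *Smad3* was 125 in cluster 3 (262 UMIs), 80.9 in cluster 11 (161 UMIs; difference -0.63, -0.92 to -0.34) and 100.4 in cluster 18 (56 UMIs). *Tgfb1* was 102 in cluster 3 (214 UMIs), 91.5 in cluster 11 and 78.9 in cluster 18 (44 UMIs), with intervals that overlapped. Past the fold were 1 of 6 members (*Tgfbr1*) between clusters 11 and 3, where 6.05% of all genes were, and 2 of 6 (*Tgfbr1* and *Tgfbr2*) between clusters 18 and 3, where 8.09% were. Microglial genes were also lower in these clusters. *P2ry12*, a receptor of resting microglia, was 707 in cluster 3, 244 in cluster 11 and 213 in cluster 18, and the chemokine receptor gene *Cx3cr1* was 717, 383 and 269. The median depth of cluster 18 was 1858.5 UMIs, against 2985 in cluster 3 and 3329 in cluster 11. *Spp1*, which encodes the secreted protein osteopontin of activated myeloid cells, was at 0 UMIs in control cluster 3 cells and at 129 CPM in WMI cluster 3 cells. It was also higher in the WMI sample outside the myeloid classes. Astrocyte-like cluster 9 had 0.477 and 75.5 and cluster 14 had 2.67 and 92.7, and fibroblast-like cluster 28 had 15.3 and 63.2. The source of the *Spp1* UMIs in cluster 3 was not tested. Taking activated myeloid-like cells against all microglia-like cells of the WMI sample, 0 of 7 members were past the fold, with 5.64% of all genes, and the largest difference was that of *Tgfbr1*, -0.94 (-1.06 to -0.81).

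Along the OL lineage, *Smad7* and *Smad3* followed different courses in both libraries. *Smad7* had 11.3 CPM in OPC-like cells (18 UMIs), 69.6 in pre-OL-like cells (62 UMIs) and 224 in mature OL-like cells (177 UMIs) of the control sample, and 17.7 (42 UMIs), 40.7 (91 UMIs) and 232 (110 UMIs) in the WMI sample. Mature OL-like cells were above OPC-like cells by 4.31 on the log2 scale in the control sample (3.61 to 5.10) and by 3.71 in the WMI sample (3.19 to 4.26). *Smad3* went from 13.8 (22 UMIs) to 76.4 (68 UMIs) and down to 3.8 (3 UMIs) in the control sample, and from 18.1 (43 UMIs) to 82.4 (184 UMIs) and 16.9 (8 UMIs) in the WMI sample. Pre-OL-like cells were above OPC-like cells by 2.47 (1.76 to 3.24) and 2.18 (1.70 to 2.70), and mature OL-like cells differed from pre-OL-like cells by -4.33 (-6.64 to -2.72) and -2.29 (-3.52 to -1.28). *Tgfb2* was higher in OPC-like cells than in pre-OL-like cells, with differences of pre-OL-like from OPC-like cells of -1.84 (-3.23 to -0.68) and -2.33 (-3.23 to -1.52). *Tgfbr1* did not differ beyond counting error between pre-OL-like and OPC-like cells (0.13, -0.41 to 0.66, and 0.17, -0.15 to 0.49) and was lower in mature OL-like than in pre-OL-like cells (-0.95, -1.73 to -0.21, and -1.27, -2.14 to -0.51).

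**Figure D5:**
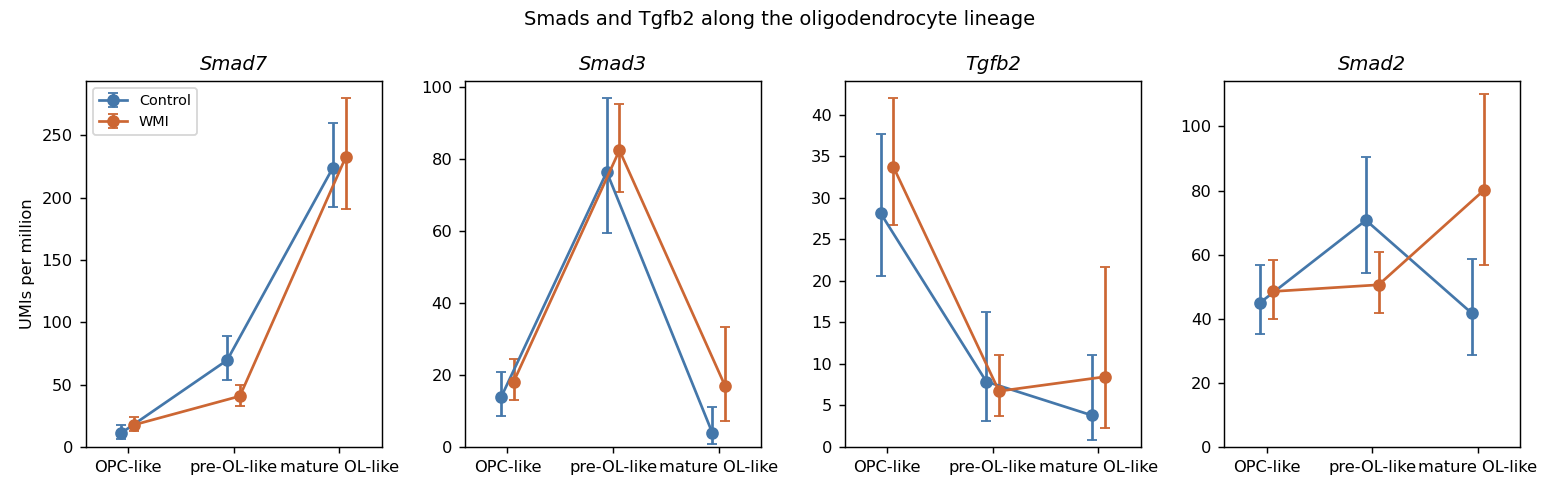
Levels of *Smad7*, *Smad3*, *Tgfb2* and *Smad2* (CPM, linear axes from 0) in OPC-like, pre-OL-like and mature OL-like cells of the control sample (blue) and the WMI sample (orange), with exact Poisson 95% intervals. *Smad7* was highest in mature OL-like cells (224 and 232) and *Smad3* in pre-OL-like cells (76.4 and 82.4).

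Between the libraries, pre-OL-like cells had less *Smad7* in the WMI sample (ratio -0.77, -1.25 to -0.28) and less *Smad2* (70.7 and 50.6 CPM, ratio -0.48, -0.94 to -0.02), whereas *Smad3* had a ratio of 0.11 (-0.30 to 0.53) and *Tgfbr1* of 0.45 (-0.02 to 0.93). In the same cells the OPC marker sum was 2322 and 3254 CPM, the pre-OL marker sum 12948 and 12955 and the mature OL marker sum 2377 and 2006. Mature OL-like cells, of which there were 92 in the control and 49 in the WMI sample, had the same *Smad7* level within counting error (ratio 0.05, -0.30 to 0.40) and more *Smad2* in the WMI sample (41.8 from 33 UMIs and 80.2 from 38 UMIs, ratio 0.94, 0.23 to 1.66). The pre-OL marker sum of mature OL-like cells was 2309.8 and 5377, and their mature OL marker sum 13187 and 15181. The part of these marker genes' cell types in the *Smad7* and *Smad2* ratios was not tested. In OPC-like cells, *Tgfbr1* had a ratio of 0.41 (0.01 to 0.81) and the ratios of *Tgfb2*, *Tgfbr3*, *Smad2*, *Smad3* and *Smad7* had intervals that included 0. In fibroblast-like cells the ratios were -0.52 for *Tgfbr1* (-1.03 to -0.02), -0.34 for *Tgfbr3* (-0.63 to -0.04) and 0.75 for *Smad3* (0.12 to 1.42). In cells with a Y-linked UMI and no *Xist* UMI the *Tgfbr1* ratio was 0.06 (-0.62 to 0.70). Within cluster 28 alone the ratios were -0.25 (-0.92 to 0.44), 0.43 (-0.01 to 0.90) and 0.63 (-0.09 to 1.40), so that none of the 3 lay beyond counting error there and *Tgfbr3* changed direction. For neuroblast-like cells, *Tgfbr1* (-0.40, -1.17 to 0.38) and *Smad2* (0.66, -0.20 to 1.59) could be compared, and neither lay beyond counting error.

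Both signalling receptors are needed in the same cell. Without thinning, 47.5% of control and 36.3% of WMI microglia-like cells and 38.3% of WMI activated myeloid-like cells held UMIs of both *Tgfbr1* and *Tgfbr2*. In fibroblast-like cells these shares were 29.4% and 21.2%, in astrocyte-like cells 1.48% and 4.54%, and in excitatory neuron-like cells 0.499% and 1.89%. After thinning to 1000 UMIs the shares were 14.3% and 11.7% in microglia-like cells and 0.212% and 0.156% in astrocyte-like cells. These shares depend on the level of each receptor and on the UMIs per cell.

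The other genes of the pathway were followed in 4 lists of 50 genes in all: ligand processing and activation, other receptors and co-receptors, Smad partners, adaptors and inhibitors, and targets. The same fold and minimum were used, and 24 comparisons of a gene in a class were past the fold between the libraries. The numbers compared are given below by list and class. The share of all genes past the fold lay between 3.15% and 7.11% in the classes compared. In microglia-like cells, 1 of 8 processing genes compared was higher in the WMI sample, *Furin*, which encodes a protease that cleaves the TGF-beta precursor (16.2 and 40.03 CPM, ratio 1.31). Of 5 targets compared, the immediate early gene *Junb* (ratio 1.15) and the matrix gene *Fn1* (19.1 and 57.8, ratio 1.59) were higher, and none of 2 co-receptors and 15 Smad partners was past the fold. The share of all genes past the fold was 5.32% in this class.

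In astrocyte-like cells, 3 of 10 processing genes were higher in the WMI sample and 2 were lower. The latter were *Itgav*, an integrin subunit that takes part in the release of latent ligand (228 and 104 CPM, ratio -1.14, -1.34 to -0.94), and *Nrros*, a tether of latent ligand that was highest in myeloid classes (31.2 and 15.0, ratio -1.05). The higher ones were *Ltbp4* (8.10 and 19.8, ratio 1.29) and *Ltbp3* (10.52 and 25.2, ratio 1.26), which encode binding proteins of latent ligand, and the microfibril gene *Fbn1* (17.0 and 36.0, ratio 1.08). *Cd109*, which encodes an inhibitory co-receptor, was the 1 of 2 co-receptors past the fold (2.83 from 7 UMIs and 26.7 from 89 UMIs, ratio 3.24, 2.13 to 4.59). *Smad6*, the other inhibitory Smad, was the 1 of 16 Smad partners past the fold (8.90 and 23.4, ratio 1.39). Of 5 targets, *Junb* (ratio 3.07), *Runx1* (ratio 3.03) and *Fn1* (ratio 2.95) were higher, and 7.11% of all genes were past the fold in this class.

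*Runx1*, a transcription factor of myeloid cells, was higher in the WMI sample in every class in which it was past the fold: astrocyte-like (3.24 and 26.4 CPM), OPC-like (3.75 and 25.3), pre-OL-like (2.25 and 24.6), excitatory neuron-like (1.64 and 12.4) and inhibitory neuron-like cells (0.631 and 17.4). Its highest level was that of microglia-like cells in the control sample (378) and that of activated myeloid-like cells in the WMI sample (886). The microglial marker sums of these classes were also higher in the WMI sample, and the part of myeloid RNA in these values was not tested. The same is true of the integrin gene *Itgb5*, which was highest in microglia-like cells (499.7 and 531 in the control and WMI library) and past the fold in OPC-like (8.13 and 22.4), excitatory neuron-like (5.98 and 12.8) and inhibitory neuron-like cells (8.41 and 18.5).

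The counts in other classes include *Runx1* and *Itgb5*. In pre-OL-like cells, 1 of 4 processing genes and 1 of 1 target were past the fold, where 4.21% of all genes were. In OPC-like cells these were 1 of 8 and 2 of 3, with 3.18% of all genes. Excitatory neuron-like cells had 2 of 12 and 1 of 7 (6.13%), and inhibitory neuron-like cells 1 of 8 and 1 of 2 (3.15%). Fibroblast-like cells had 1 of 4 and 0 of 2 (5.59%). In pre-OL-like cells *Ltbp1*, another binding protein of latent ligand, was lower in the WMI sample (176 and 69.8 CPM, ratio -1.34, -1.67 to -1.01), in OPC-like cells *Fn1* was higher (5.004 and 18.6, ratio 1.89), and in excitatory neuron-like cells the ligand-binding proteoglycan gene *Dcn* was higher (2.35 and 10.49, ratio 2.16). In fibroblast-like cells *Fbn1* was lower (100.6 and 47.7, ratio -1.08, -1.87 to -0.30). None of the 15 Smad partners compared in pre-OL-like, OPC-like, excitatory neuron-like or inhibitory neuron-like cells was past the fold, nor any of 11 in fibroblast-like cells. Of co-receptors, 0 of 4 were in excitatory neuron-like cells, and 0 of 1 in each of the other classes just named. Mature OL-like cells had 0 of 2 processing genes, 0 of 1 co-receptor and 0 of 11 Smad partners (6.13% of all genes). Neuroblast-like cells had 0 of 1, 0 of 1 and 0 of 10 (3.91%). No target reached the minimum in either class. Compared to microglia-like cells of the WMI sample, activated myeloid-like cells had more of the target *Tgfbi* (19.3 and 54.8, difference 1.51, 1.02 to 2.02) and less of the co-receptor *Eng* (38.5 and 16.6, difference -1.22, -1.83 to -0.64). These were 1 of 6 targets and 1 of 2 co-receptors compared, where 5.64% of all genes were past the fold.

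Several pathway genes shared the classes of the members. *Ldlrad4*, which encodes an inhibitor of Smad signalling, was highest in microglia-like cells, with 1760 CPM in the control sample and 1449 in the WMI sample, as were its relative *Pmepa1* (283 and 181) and the ubiquitin ligase gene *Smurf2* (230.4 and 224). *Smurf1*, the other ubiquitin ligase gene of this family, was highest in mature OL-like cells (301 and 386), as *Smad7* was, whose protein works with both ligases. *Itgb8*, a subunit of an integrin that activates latent ligand, was highest in OPC-like cells (139 and 134), and *Zfyve9*, which encodes an anchor of Smad2 and Smad3, in inhibitory neuron-like cells (194 and 179).

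The likeness of patterns was measured as Pearson's r of log2 levels over 22 points, the classes of both libraries with at least 30 cells, among 12368 genes. The points share libraries, so that r is only a description. Classes of a library may also share RNA from outside their own cells, and its part in r was not tested. *Tgfb1* was most like *Ncf1* (0.97), *Hpgds* (0.97) and *Rab3il1* (0.96), *Tgfbr1* most like *Mtdh*, *Maml1* and *Pwwp2a* (each 0.95), and *Tgfbr2* most like *Trim30d*, *Ctsh* and *Casp8* (each 0.95). *Tgfb2* was most like *Fgfr1* (0.89), *Myo10* (0.89) and *Amot* (0.88), and *Tgfbr3* most like *Tbx15* (0.93), *Il34* (0.92) and *Col4a1* (0.92). *Tgfb3* had no close neighbour, with *Tmem18* (0.74), *Abcd3* (0.73) and *Ppp3cc* (0.72) as the nearest genes. *Smad2* was most like *Tra2b*, *Kat6a* and *Hnrnpc* (0.91 to 0.92), *Smad3* like *Cryl1* (0.83) and *Btg3* (0.80) and *Smad7* most like *Rap1a*, *Abl1* and *Rffl* (each 0.94). Among the members, r was 0.87 for *Tgfb1* and *Tgfbr2*, 0.84 for *Tgfb1* and *Tgfbr1*, 0.84 for *Tgfbr1* and *Tgfbr2*, 0.01 for *Smad3* and *Smad7*, and -0.49 for *Tgfb2* and *Smad7*.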

How the data were processed

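The authors deposited, per sample, a 10x matrix of raw UMI counts per gene and barcode with its gene and barcode lists. The matrix header names Cell Ranger 6.1.1, and the submitters' processing notes name mm9 and Seurat. All listed gene IDs are in GENCODE M21 (GRCm38), which was used for positions, and promoter sequences came from RefSeq (GRCm38.p6).

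Barcodes with at least 1000 UMIs, at least 500 genes and at most 10% mitochondrial UMIs were kept, and cells like artificial doublets were removed. The doublet score found 78.2% of artificial doublets in the control and 68.6% in the WMI library. Cells were clustered with Seurat 5.3.0 in R 4.3.3 (2000 variable genes, 30 dimensions, resolution 0.8) and named from marker lists. The thresholds for naming were chosen after a look at the clusters. Summed counts per class, intervals and ratios were computed in Python 3.11.15 with SciPy 1.17.1. The scripts were tested on simulated data.

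The members, marker lists and pathway lists were chosen with earlier results of these data known. The genes named beside the members were, per list and class, at most 4 of those past the fold, and up to 3 genes most like each member, 1 of which is not reported here. Alternatives were other clustering resolutions (0.4 and 1.6), kept doublets, other UMI minimums, no thinning, the mean of each cell's own level, equal cluster shares, clusters of mainly 1 library left out, and cells with a Y-linked UMI and no *Xist* UMI. Cells without a microglial marker UMI were added after seeing the data.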

Additional observations from a re-analysis of the deposited data

Results flagged for a closer look

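For 4 members the WMI-to-control ratio lay beyond counting error in opposite directions in a pair of classes. With 1 library per condition the difference between the classes was not tested in any of them. *Tgfbr1* had a log2 ratio of -0.66 in microglia-like cells and of 0.72 in astrocyte-like cells. The microglial marker sum of astrocyte-like cells was 157 CPM in the control and 403 in the WMI sample, and its part in that ratio was not tested. *Tgfbr3* had -0.34 in fibroblast-like cells and 0.60 in excitatory neuron-like cells, but the former was 0.43 within cluster 28 and 0.04 at resolution 1.6, and the latter was 0.02 with equal cluster shares in both libraries. *Smad2* had -0.48 in pre-OL-like cells and 0.94 in mature OL-like cells. *Smad7* had -0.77 in pre-OL-like cells and 0.45 in microglia-like cells.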

How the results depend on the processing

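No paired analysis was possible because each condition has 1 library. Of the member ratios beyond counting error, those of fibroblast-like cells changed direction under some settings: *Tgfbr1* (-0.52) was 0.06 in cells with a Y-linked UMI and no *Xist* UMI, *Tgfbr3* (-0.34) was 0.04 at resolution 1.6 and *Smad3* (0.75) was -0.70 at resolution 0.4, where the class held 20 control and 13 WMI cells. The other member ratios beyond counting error kept their direction under the settings run. In microglia-like cells the *Tgfbr1* ratio (-0.66) was -1.39 at resolution 0.4, -0.82 as the mean of each cell's level, -0.53 in cells with at least 2000 UMIs and -0.43 without clusters of mainly 1 library. At resolution 0.4 activated myeloid-like cells joined the class. It then also held a cluster of 12 control and 1207 WMI cells that was led by *Ftl1* and the mitochondrial gene *mt-Rnr2*. At resolution 1.6 a cluster of 13 control and 831 WMI cells, led by the same 2 genes, took the activated myeloid-like name. The *Tgfbr2* ratio (0.43) was 0.026 at resolution 0.4 and 0.23 in cells with a Y-linked UMI and no *Xist* UMI. The *Smad7* level in control mature OL-like cells (224) was 190.85 with predicted doublets kept. The class then held 158 control and 181 WMI cells, against 92 and 49 in the main analysis. Of the 4 comparisons of members past the fold, 2 remained as the mean of each cell's level. The 24 pathway comparisons past the fold became 42 with a minimum of 20 UMIs and 5 with a minimum of 200 UMIs. The share of all genes past the fold was not computed at those minimums. The difference in the share of astrocyte-like cells with a *Tgfbr2* UMI (3.38 percentage points) was 12.2 without thinning. The cause of these shifts was not tested. With doublets kept there was no fibroblast-like class.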
